A study of Mus musculus with 91 samples.

Results

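The genes of the voltage-gated calcium channel pore (α1) subunits *Cacna1a*, *Cacna1b*, *Cacna1c*, *Cacna1d*, *Cacna1e*, *Cacna1g*, *Cacna1h* and *Cacna1i* were followed through the transcriptomes of single L5 pyramidal neurons (Pyrs) of mouse V1. They were chosen by symbol as the brain members of the family, 8 of 34745 rows of the deposited tables, and the 3 T-type genes (*Cacna1g*, *Cacna1h* and *Cacna1i*) were set against the other 5. RNA came from 47 neurons classed as Pyr←LP, the type innervated by the lateral posterior thalamic nucleus (LP), and 44 classed as Pyr←ORBvl, the type innervated by the ventrolateral orbital cortex (ORBvl). All 91 neurons came from adult wild-type mice and were taken up through the patch pipette after recording, and the authors had assigned their type from the slope of the hyperpolarization-activated current (Ih) with a classifier, not from RNA and not from the inputs of these neurons, so the types are electrophysiological classes. The labels name no mouse. The recording prefix in the sample names was therefore taken as the unit of replication: 14 of the 17 prefixes held neurons of both types, with 1 to 6 neurons of a type in a prefix, 2 held Pyr←LP neurons only and 1 Pyr←ORBvl neurons only.

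A voltage-gated calcium channel opens when the membrane is depolarized, and its pore subunit sets the voltage at which this happens. *Cacna1a* encodes the P/Q-type and *Cacna1b* the N-type channel, the main sources of calcium for transmitter release. *Cacna1c* and *Cacna1d* encode the L-type channels of soma and dendrites, which also couple calcium entry to transcription, and *Cacna1e* encodes the R-type channel. Most of these channels need strong depolarization, though those of *Cacna1d* open at more negative voltages than those of *Cacna1c*. The T-type channels open near rest and carry low-threshold calcium spikes and bursts in many neurons.

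The classes also differ in their pore loops. Each loop carries an acidic residue that faces the calcium ion, and in the third repeat this residue is a glutamate in the high-voltage-activated channels and an aspartate in the T-type channels. The coding sequence of that loop is shown for all 8 genes, with the codon of the acidic residue in capitals and 21 bases on each side of it (GENCODE M21 transcripts, GRCm38, 5′ to 3′ on the coding strand):
Cacna1a: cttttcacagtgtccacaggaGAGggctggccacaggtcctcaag
Cacna1b: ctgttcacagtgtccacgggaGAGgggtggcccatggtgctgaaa
Cacna1c: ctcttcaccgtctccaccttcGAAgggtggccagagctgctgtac
Cacna1d: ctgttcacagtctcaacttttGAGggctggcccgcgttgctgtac
Cacna1e: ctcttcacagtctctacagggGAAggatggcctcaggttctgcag
Cacna1g: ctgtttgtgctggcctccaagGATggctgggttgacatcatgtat
Cacna1h: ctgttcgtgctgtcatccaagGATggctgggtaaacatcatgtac
Cacna1i: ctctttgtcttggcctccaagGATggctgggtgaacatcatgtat

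All 3 T-type genes had GAT, an aspartate codon, at this place, and the others had GAG or GAA, which encode glutamate. Of the 45 bases, 37 to 40 were the same between any pair of T-type genes, 30 to 36 between any pair of the other genes, and 20 to 25 between a T-type gene and one of the others. In the 5 other genes the loop was split by an intron after base 35, whereas in each T-type gene it lay within exon 24. That exon segment was at chr11:94426450-94426494 on the minus strand for *Cacna1g*, at chr17:25383487-25383531 on the minus strand for *Cacna1h* and at chr15:80376786-80376830 on the plus strand for *Cacna1i*. The whole genes spanned chr11:94408391-94474198, chr17:25374285-25433783 and chr15:80287238-80398279, and the loci of the others were on chromosomes 8 (*Cacna1a*), 2 (*Cacna1b*), 6 (*Cacna1c*), 14 (*Cacna1d*) and 1 (*Cacna1e*).

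Total counts were between 2545 and 1948982 in Pyr←LP neurons (median 411884) and between 2410 and 1699215 in Pyr←ORBvl neurons (median 445008.5), and 19 neurons had under 100000. The median number of genes with a count was 3241 in Pyr←LP and 3980.5 in Pyr←ORBvl neurons. The 7 markers listed for Pyrs included *Snap25*, a pan-neuronal gene, which had a count in all 91 neurons. The excitatory marker *Slc17a7* had a count in 35 Pyr←LP and 36 Pyr←ORBvl neurons, and *Fezf2* in 20 and 32. GABAergic markers, which a Pyr should lack, had counts in 21 Pyr←LP and 23 Pyr←ORBvl neurons (*Pvalb* in 13 and 16, *Gad1* in 9 and 11, *Sst* in 7 and 11, *Gad2* in 6 and 6, *Vip* in 2 and 2, and *Slc32a1* in 1 and 2). Astrocyte markers had counts in 17 and 21 neurons. Markers of oligodendrocytes had counts in 45 Pyr←LP and 44 Pyr←ORBvl neurons and those of microglia in 39 and 41. Pyr←ORBvl neurons 5 and 11, of prefixes 822 and 823, stood apart from all others: over the genes tested, their log2(CPM + 1) values correlated with r = 0.991 (CPM, counts per 1000000 counts of a neuron), against 0.509 for the next pair and a median of 0.237 over all pairs. The labels give them as separate neurons and their counts were not identical, so both were kept among the 44, but whether they share a source was not settled. Where they hold a large share of the counts of a member, its levels are given with and without them, and so are some of the fold changes.

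Every member was found in both types, and each in a minority of the neurons of either type. *Cacna1a* had at least 1 count in 22 of 47 Pyr←LP neurons (46.8%, exact 95% interval 32.1 to 61.9) and in 21 of 44 Pyr←ORBvl neurons (47.7%, 32.5 to 63.3). *Cacna1e* followed, with 17 (36.2%) and 19 (43.2%), then *Cacna1b* with 14 (29.8%) and 11 (25%). Of the L-type genes, *Cacna1c* had a count in 14 Pyr←LP (29.8%) and 7 Pyr←ORBvl neurons (15.9%) and *Cacna1d* in 9 (19.1%) and 6 (13.6%), with intervals that overlapped. After thinning to 100000 counts, *Cacna1d* had one in 13.2% and 14.7%. *Cacna1g* had a count in 6 Pyr←LP neurons (12.8%) and 8 Pyr←ORBvl neurons (18.2%), and *Cacna1i* in 6 (12.8%) and 7 (15.9%). *Cacna1h* was the one member with intervals that did not overlap: 3 of 47 Pyr←LP neurons (6.38%, 1.34 to 17.5) and 15 of 44 Pyr←ORBvl neurons (34.1%, 20.5 to 49.9). The intervals cover counting of neurons only and treat neurons of a prefix as independent.

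**Figure D1:**
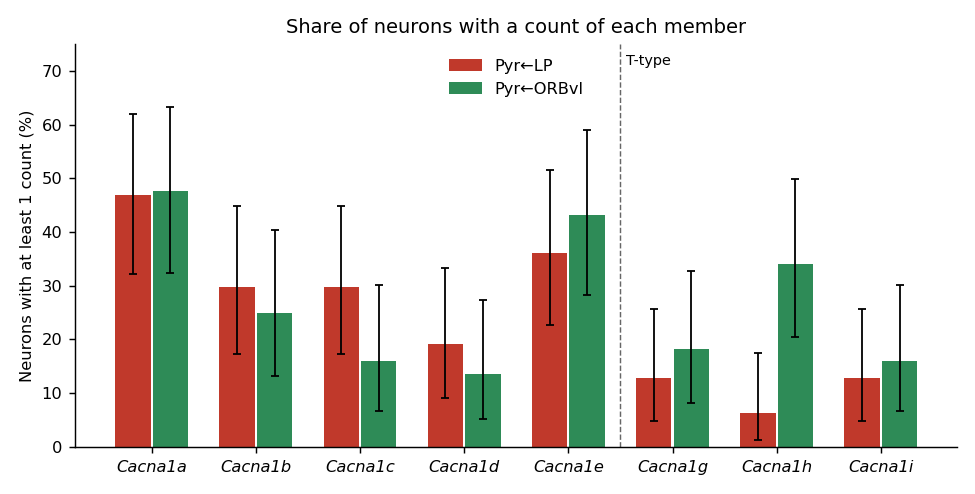
Share of neurons with at least 1 count of each member (vertical axis, percent) in the 47 Pyr←LP (red) and 44 Pyr←ORBvl (green) neurons; error bars are exact 95% binomial intervals, and the dashed line separates the T-type genes. The bars of most members are alike in both types, and those of Cacna1h stand at 6.38% and 34.1%.

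The question of the comparison was whether the types differ in these channels. Counts were summed over the neurons of a type in each of the 14 prefixes with both types, and the 28 sums were compared within prefixes with edgeR (quasi-likelihood test). The 8267 genes that reached 5 counts in 10 or more neurons were tested, p-values were adjusted over all of them (Benjamini-Hochberg), and a gene was called when its adjusted p was below 0.05 and its fold exceeded 2. This test called 0.0121% of the genes, 1 gene, *Lamp5*, which is named after its values were seen, and 381 genes had an unadjusted p under 0.05. Of the 8 members, 7 passed the filter on low counts, 0 were called, and 3 of the 7 fold changes were positive; *Cacna1i* had counts in too few neurons to be tested. With single neurons as units, edgeR called 1.57% of the genes, 1.06% higher in Pyr←ORBvl neurons and 0.508% higher in Pyr←LP neurons, and its p-values measure the spread between neurons, not between mice. The balance of these calls turned without the 8 neurons high in GABAergic genes, from 88 higher in Pyr←ORBvl and 42 in Pyr←LP neurons to 66 and 104. That test called *Cacna1h* and *Cacna1d*, 2 of the 7 members tested. The third test compared the share of neurons with a count within prefixes, by exact two-sided sign-flip permutation over the 14 prefixes. It called no gene after adjustment (0%), whereas 6.47% of the genes had an unadjusted p under 0.05 (5.09% with the higher share in Pyr←ORBvl neurons and 1.38% in Pyr←LP neurons), and no member was among these. That lean to Pyr←ORBvl neurons was absent when neurons were thinned to 100000 counts, where 315 genes had such a p, 146 with the higher share in Pyr←ORBvl and 169 in Pyr←LP neurons.

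**Figure D2:**
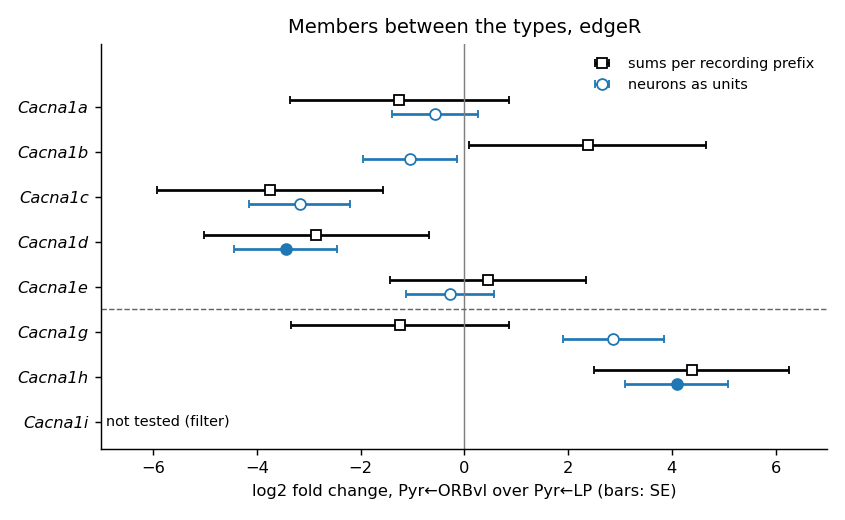
Log2 fold change of each member, Pyr←ORBvl over Pyr←LP (horizontal axis; bars are SE), from edgeR on sums per recording prefix (black squares) and on single neurons (blue circles). Filled symbols passed the call, which is Cacna1d and Cacna1h with neurons as units; Cacna1b, Cacna1e and Cacna1g lie on opposite sides of 0 in the 2 fits, and Cacna1i was not tested.

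*Cacna1h* had the largest fold change of the members in either fit. The 3 Pyr←LP neurons with a count had FPKM (counts per kilobase of gene length and 1000000 counts of the neuron) of 0.0916, 0.125 and 11.5, which correspond to 1, 1 and 109 counts. In the 15 Pyr←ORBvl neurons with a count the lowest was 0.414, the median 1.97 and the highest 57.7, with 1595 counts in all. Over all neurons of either type the median was 0, so the groups overlapped at 0 and differed in the upper tail. The mean over prefixes was 0.725 ± 2.87 FPKM (SD, n = 16 prefixes) in Pyr←LP neurons and 4.09 ± 6.71 (SD, n = 15) in Pyr←ORBvl neurons. Fewer transcripts in a neuron and a less efficient capture of its RNA cannot be told apart in such counts.

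With neurons as units *Cacna1h* rose in Pyr←ORBvl neurons, with a log2 fold change of 4.09 ± 0.99 (SE; edgeR, adjusted p = 0.0079). DESeq2 called it too (log2 fold change 6.67 ± 1.30, adjusted p = 1.5e-04); that test called 0.786% of the genes, 0.532% higher in Pyr←ORBvl and 0.254% higher in Pyr←LP neurons. The call held without Pyr←ORBvl neuron 7, which carried 771 of the 1595 counts (3.66 ± 0.97, edgeR adjusted p = 0.023), and with the prefix as a block (3.43 ± 0.97, edgeR adjusted p = 0.036). Pyr←LP neuron 10 carried 109 of the 111 counts in its type, so leaving it out could only enlarge the difference. On sums per prefix the size was the same and the error larger, 4.38 ± 1.88 (edgeR, p = 0.020, adjusted p = 0.92). By prefix, the share of neurons with a count was higher in Pyr←ORBvl neurons in 5 prefixes, higher in Pyr←LP neurons in 1 and equal in 8, a mean difference of 18.9 ± 10.4 percentage points (SE, n = 14; exact sign-flip permutation p = 0.16, adjusted p = 0.83). That mean difference was above the one of 89.9% of the genes tested. With 8 prefixes equal, the smallest p that the sign flips could give was 0.031. The difference was thus called with neurons as units and was not detected above the spread between prefixes, and single neurons of both types spread widely around a median of 0.

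Depth and GABAergic markers moved with *Cacna1h* among Pyr←ORBvl neurons, and their part in the result was not tested beyond the values given here. After thinning every neuron with at least 100000 counts to that depth, it had a count in 2 of 38 Pyr←LP neurons (5.26%) and 13 of 34 Pyr←ORBvl neurons (38.2%). Pyr←ORBvl neurons with a count had a median of 787287 counts in all, and those without 409959. The summed GABAergic markers had a median of 111 CPM in the former and 0 in the latter, and were above 0 in 10 of 15 and 13 of 29; without the 8 neurons whose sum of log2(count + 1) over *Slc32a1*, *Gad1* and *Gad2* was above 7, the log2 fold change was 4.29 with neurons as units (edgeR, adjusted p = 0.0078). The summed microglial markers had medians of 202 and 332 CPM and the oligodendrocyte markers 1743 and 1535 CPM. An exon of *Tpsg1*, on the opposite strand, shares 158 bases with *Cacna1h* in GENCODE, and 5 of the 6 neurons with *Tpsg1* counts also had *Cacna1h* counts; *Tpsg1* had 46 counts in all and *Cacna1h* 1706, and reads within the shared bases cannot be told apart without strand.

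**Figure D3:**
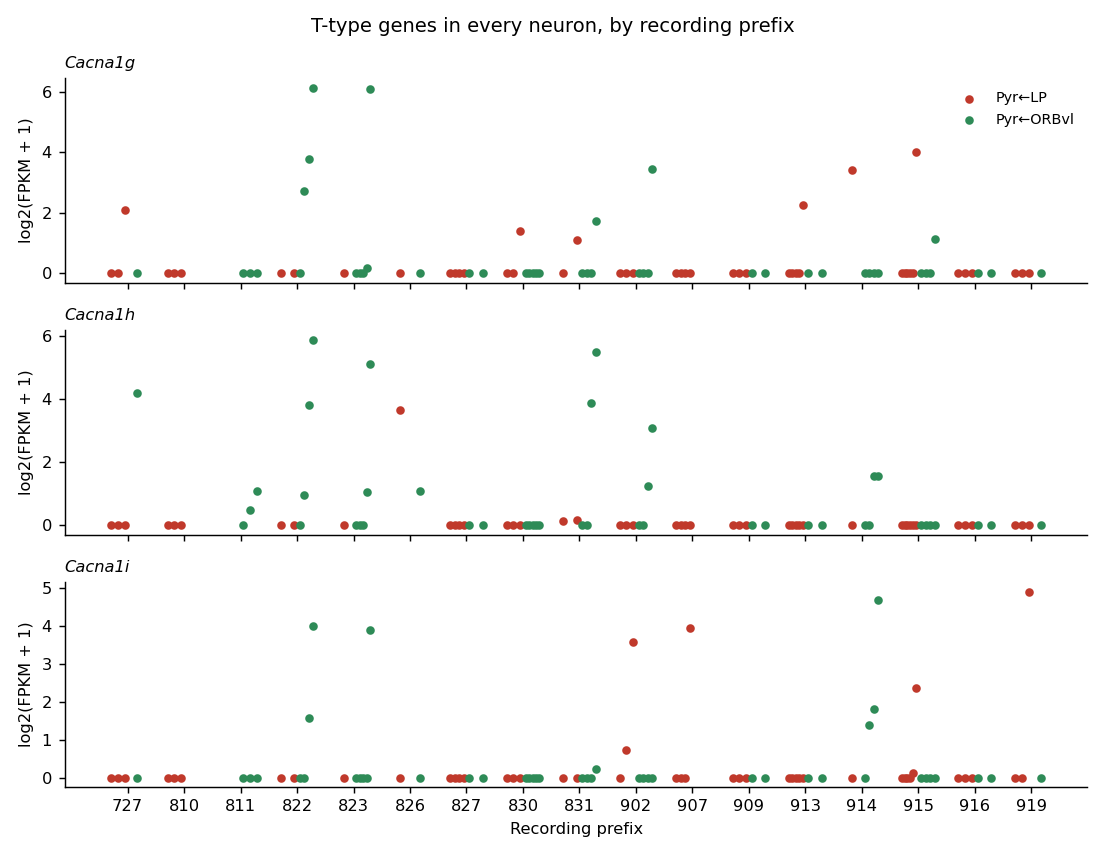
Level of the 3 T-type genes, log2(FPKM + 1), in every neuron (points), by recording prefix (horizontal axis), Pyr←LP in red and Pyr←ORBvl in green. Cacna1h points above 0 are green in 8 prefixes and red in 2, and the highest Cacna1g points, in prefixes 822 and 823, are Pyr←ORBvl neurons 5 and 11.

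The other T-type genes did not repeat the pattern of *Cacna1h*. *Cacna1g* had 84 counts in Pyr←LP neurons, where FPKM ran from 1.17 to 14.9 in the 6 neurons with a count. It had 2401 counts in Pyr←ORBvl neurons, with FPKM from 0.133 to 68.9 in 8 neurons. Of these, 89.7% were in Pyr←ORBvl neurons 5 and 11, at 68.9 and 66.2 FPKM, and without this pair 247 counts in 6 of 42 neurons were left, with a highest value of 12.6 FPKM. Prefix means were 0.951 ± 2.44 FPKM (SD, n = 16) in Pyr←LP and 2.56 ± 6.32 (SD, n = 15) in Pyr←ORBvl neurons, and 0.630 ± 1.63 in the latter without the pair. Both neurons of the pair were also among those high in GABAergic genes (sums of 8.09 and 8.13). Without all neurons high in these genes, the Pyr←ORBvl mean was 0.466 ± 1.56 FPKM (SD, n = 15). The log2 fold change was 2.88 ± 0.98 with neurons as units (edgeR, adjusted p = 0.13), 0.55 without the pair (edgeR, adjusted p = 0.98) and -1.24 ± 2.10 on sums per prefix (edgeR, adjusted p = 0.9998). Its direction was thus not settled.

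*Cacna1i*, the third T-type gene, had at least 5 counts in 3 Pyr←LP and 5 Pyr←ORBvl neurons. In the 6 Pyr←LP neurons with a count FPKM ran from 0.0940 to 28.9, and in the 7 Pyr←ORBvl neurons from 0.171 to 24.9. The ranges covered each other. Pyr←ORBvl neurons 5 and 11 held 46% of the 754 counts in their type. Prefix means were 1.11 ± 2.60 FPKM (SD, n = 16) and 0.954 ± 2.15 (SD, n = 15), and 0.531 ± 1.87 in Pyr←ORBvl neurons without the pair. With no filter on low counts the fit on sums gave a log2 fold change of 0.79 (edgeR, adjusted p = 0.98).

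Over all neurons *Cacna1a* had the highest mean level in both types, but in Pyr←ORBvl neurons this depended on the neurons kept and on the gene length used. FPKM was between 0.0968 and 98.5 in the 22 Pyr←LP neurons with a count (median 12.9) and between 0.0409 and 49.2 in the 21 Pyr←ORBvl neurons (median 6.33). Prefix means were 8.25 ± 9.82 (SD, n = 16) and 4.44 ± 6.92 (SD, n = 15). The shares with a count were higher in Pyr←ORBvl neurons in 6 prefixes and in Pyr←LP neurons in 6, and the log2 fold change was -0.57 ± 0.82 with neurons as units (edgeR, adjusted p = 0.98) and -1.25 ± 2.11 on sums. The transmitter-release partner *Cacna1b* had prefix means of 1.78 ± 3.35 (SD, n = 16) and 0.780 ± 1.01 (SD, n = 15), and its log2 fold change was -1.05 ± 0.90 with neurons as units (edgeR, adjusted p = 0.88) but 2.38 ± 2.28 on sums. Pyr←ORBvl neurons 5 and 11 held 36.9% of its counts in that type, and without them the prefix mean was 0.661 ± 1.04 and the log2 fold change with neurons as units -1.32 ± 0.92 (edgeR, adjusted p = 0.79). On sums it was then 0.85 ± 2.15 (edgeR, adjusted p = 0.9997). *Cacna1e*, the R-type gene, had prefix means of 2.19 ± 2.60 (SD, n = 16) and 1.38 ± 1.70 (SD, n = 15) and log2 fold changes of -0.28 ± 0.85 and 0.46 ± 1.89. For these 3 genes no test called a difference between the types, and the errors leave wide intervals.

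The L-type genes, like 4 of the other members, had their highest single value in a Pyr←LP neuron. *Cacna1c* FPKM was between 0.0594 and 22.0 in the 14 Pyr←LP neurons with a count (median 2.77) and between 0.0312 and 2.67 in the 7 Pyr←ORBvl neurons (median 1.37). Prefix means were 1.69 ± 2.89 (SD, n = 16) and 0.125 ± 0.199 (SD, n = 15). Pyr←LP neuron 7 alone carried 669 of the 1319 counts in its type. The log2 fold change was -3.17 ± 0.97 with neurons as units (edgeR, adjusted p = 0.070), -2.59 without neuron 7 (edgeR, adjusted p = 0.17) and -3.75 ± 2.18 on sums (edgeR, adjusted p = 0.9998). The share of neurons with a count differed by -16.4 ± 9.1 percentage points (SE, n = 14 prefixes), lower in Pyr←ORBvl neurons in 5 prefixes and higher in 2 (exact sign-flip permutation p = 0.094, adjusted p = 0.80). The direction was the same in all 3 tests and none passed.

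*Cacna1d* had most of its counts in a few Pyr←LP neurons. FPKM was between 0.263 and 232 in the 9 Pyr←LP neurons with a count and between 0.122 and 7.76 in the 6 Pyr←ORBvl neurons. The highest value belonged to Pyr←LP neuron 30, which had 57716 counts in all and 124 of *Cacna1d*, and the next was 37.4 in Pyr←LP neuron 14, with 430 counts. Prefix means were 4.95 ± 11.5 (SD, n = 16) and 0.281 ± 0.573 (SD, n = 15). With neurons as units it fell in Pyr←ORBvl neurons (log2 fold change -3.44 ± 1.00, edgeR adjusted p = 0.046). The fold was smaller and the call lost without Pyr←LP neuron 30 (-2.17 ± 0.88, edgeR adjusted p = 0.30), with the prefix as a block (-2.23 ± 1.28, edgeR adjusted p = 0.51) and with DESeq2 (-2.25 ± 1.74, adjusted p = 0.98). The call was also lost, by an adjusted p just above 0.05 and with a fold about as large, without the 8 neurons high in GABAergic genes (-3.45, edgeR adjusted p = 0.052), without Pyr←LP neuron 14 (-3.30, edgeR adjusted p = 0.059), without Pyr←ORBvl neuron 7 (-3.41, edgeR adjusted p = 0.053) and without Pyr←ORBvl neurons 5 and 11 (-3.47, edgeR adjusted p = 0.052). On sums it was -2.85 ± 2.17 (edgeR, adjusted p = 0.9998), and the shares of neurons with a count differed by 0.24 ± 8.7 percentage points (SE, n = 14). *Chdh*, on the opposite strand, shares 589 exon bases with *Cacna1d* in GENCODE; it had 103 counts against 854 of *Cacna1d*, and 3 of its 5 neurons had counts of both.

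**Figure D4:**
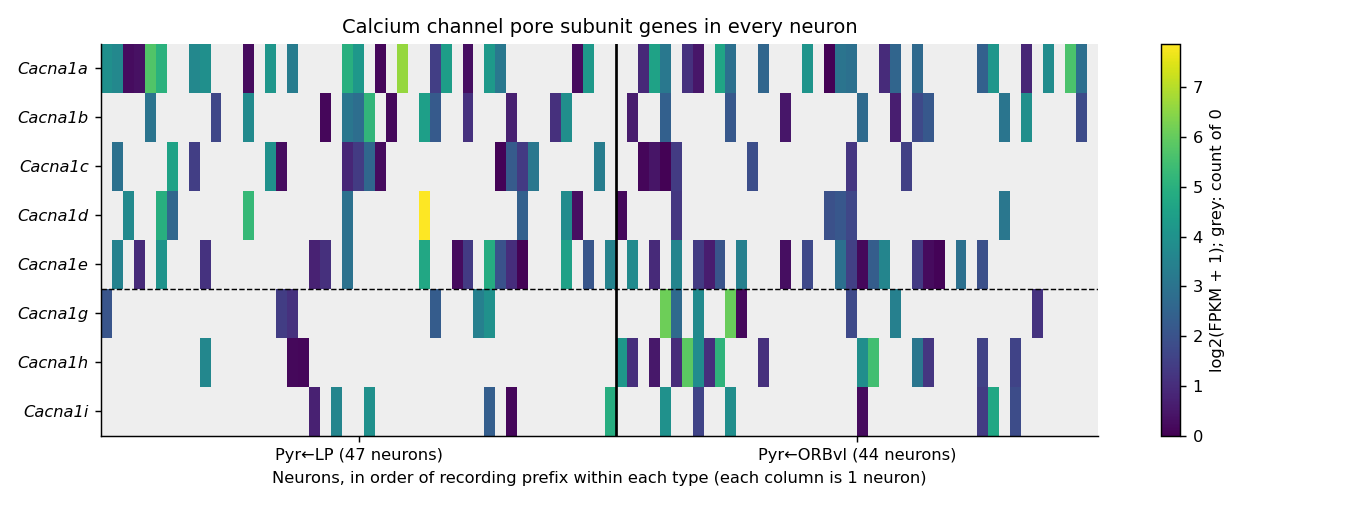
Level of each member, log2(FPKM + 1) in colour, in each of the 91 neurons (columns, ordered by recording prefix within each type); grey cells had a count of 0, the solid line divides the types and the dashed line sets off the T-type genes. Cacna1h is coloured in 15 of the 44 Pyr←ORBvl columns and in 3 of the 47 Pyr←LP columns, and the brightest cell is Cacna1d in Pyr←LP neuron 30.

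The order of the levels per length differed between the types, within wide errors. In Pyr←LP neurons the mean FPKM fell from *Cacna1a* (8.25) through *Cacna1d* (4.95), *Cacna1e* (2.19), *Cacna1b* (1.78), *Cacna1c* (1.69), *Cacna1i* (1.11) and *Cacna1g* (0.951) to *Cacna1h* (0.725), so that all 3 T-type genes stood last. This did not hold in neurons with at least 100000 counts, where *Cacna1i* (1.46) ranked right after *Cacna1a* (8.56) and *Cacna1d* (2.13), and *Cacna1h* (0.773) and *Cacna1g* (0.286) stood last. In Pyr←ORBvl neurons *Cacna1h* (4.09) and *Cacna1g* (2.56) came right after *Cacna1a* (4.44), and *Cacna1e* (1.38), *Cacna1i* (0.954), *Cacna1b* (0.780), *Cacna1d* (0.281) and *Cacna1c* (0.125) followed. No neighbours in either order differed beyond their spread: the paired difference within prefixes was at most 1.03 times its SE in Pyr←LP and at most 1.81 times in Pyr←ORBvl neurons. *Cacna1a* exceeded *Cacna1h* by 3.08 times the SE in Pyr←LP neurons (higher in 13 prefixes, lower in 0) and by 0.127 times in Pyr←ORBvl neurons (higher in 7, lower in 4). Without Pyr←ORBvl neurons 5 and 11, *Cacna1h* had the highest mean of that type (4.61) and *Cacna1g* (0.630) fell behind *Cacna1b* (0.661). Without the neurons high in GABAergic genes *Cacna1h* also ranked first in that type (4.72, against 4.54 for *Cacna1a*). The gene lengths implied by the FPKM, such as 16057 bases for *Cacna1h*, were unlike the exons of GENCODE (9763 bases); with the latter, *Cacna1h* also ranked first in Pyr←ORBvl and last in Pyr←LP neurons.

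The T-type genes took up a variable share of the summed FPKM of the 8 genes in a neuron. The share was 0% in 28 of the 41 Pyr←LP neurons with any member and 100% in 3, and 0% in 15 of the 37 such Pyr←ORBvl neurons and 100% in 2. Its mean over prefixes was 21.6 ± 29.2% (SD, n = 16) in Pyr←LP and 28.7 ± 31.8% (SD, n = 14) in Pyr←ORBvl neurons, a difference well within the spread. Taken over summed FPKM instead, which weights the neurons with most of the family, it was 9.26% and 55.1%, and 44.6% in Pyr←ORBvl neurons without neurons 5 and 11. A T-type gene had a count in 13 of 47 Pyr←LP and 22 of 44 Pyr←ORBvl neurons, and any of the other genes in 38 and 35. Pyr←ORBvl neurons 5 and 11 were among the 22. Of all genes tested, 63.9% had the higher share of neurons with a count in Pyr←ORBvl neurons within prefixes. After thinning to 100000 counts it was 49.0%.

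Most neurons held counts of only a few members. The median was 2 of the 8 genes in each type and the most was 5. None was found in 6 Pyr←LP and 7 Pyr←ORBvl neurons, and 4 or more in 3 and 9. More than 1 T-type gene was found in 2 Pyr←LP and 7 Pyr←ORBvl neurons, and 1 Pyr←ORBvl neuron had all 3. Pyr←ORBvl neurons 5 and 11, the pair of nearly the same profile, were both among these 7 and among the 9 with 4 or more members. Of the 15 Pyr←ORBvl neurons with *Cacna1h*, 11 also had *Cacna1e*, which had a count in 19 of the 44, and 7 had *Cacna1a*. At this depth a count of 0 is no sign that a gene is silent, so these are numbers of genes detected.

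The subunits that assemble with the pore were compared in the same fits. The α2δ genes (*Cacna2d1* to *Cacna2d4*) and the β genes (*Cacnb1* to *Cacnb4*) bring the channel to the membrane and set its gating. Of these 8 genes 6 were tested, and 0 were called by edgeR on sums or with neurons as units, where 0.0121% and 1.57% of all genes were called, so a count of 0 is near the background; the median log2 fold changes were 0.36 and 0.22, against 0.31 and 0.12 over all genes tested. *Cacna2d4* had a count in none of the 91 neurons. *Cacna2d3* had a count in 17 Pyr←LP and 26 Pyr←ORBvl neurons, but within prefixes the share differed by 4.88 ± 8.64 percentage points (SE, n = 14; exact sign-flip permutation p = 0.60), higher in Pyr←ORBvl neurons in 6 prefixes and in Pyr←LP neurons in 5. The 2 lowest log2 fold changes on sums over this and the next list were those of *Cacnb4* (-2.66 ± 1.80, with a count in 31 and 20 neurons) and *Cacnb3* (-0.98 ± 2.78, in 16 and 16). DESeq2 on the same sums called *Cacnb4* (-2.98 ± 0.98, adjusted p = 0.038), where it called 548 genes in all.

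Of 14 genes that bind or regulate these channels, 10 were tested and 0 were called in either fit, again near the 0.0121% and 1.57% of all genes, with median log2 fold changes of 0.84 on sums and -0.18 with neurons as units. The highest on sums were *Unc13a*, a priming factor of synaptic vesicles (2.84 ± 2.47), and *Stac2*, an adaptor of L-type channels (2.30 ± 2.13), with counts in 18 and 6 Pyr←LP and in 16 and 11 Pyr←ORBvl neurons. *Stac*, which was not tested in the fits, had no count in the 47 Pyr←LP neurons (which allows a share of up to 6.38% of neurons with a count, not of neurons that express it) and a count in 6 of 44 Pyr←ORBvl neurons. Within prefixes its share differed by 15.4 ± 7.5 percentage points (SE, n = 14), higher in Pyr←ORBvl neurons in 5 prefixes and equal in 9. The unadjusted p was 0.0625 (exact sign-flip permutation), the smallest possible with 9 prefixes equal.

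The genes most like each member were ranked by Spearman's ρ of log2(CPM + 1) over the 72 neurons with at least 100000 counts, as a description across neurons that share libraries' depth. For *Cacna1h* they were *Rasgrp4* (ρ = 0.50, detected together in 8 neurons) and *Nos1ap* (0.49, 13 neurons), for *Cacna1g* *Ranbp10* (0.57) and *Dus1l* (0.57), and for *Cacna1i* *2700078F05Rik* (0.67) and *Tmem203* (0.57). For the others they were *Nlgn1* (0.42) and *Jakmip2* (0.41) with *Cacna1a*, *Cerk* (0.59) and *Deaf1* (0.52) with *Cacna1b*, *Atxn2* (0.41) and *Dtnb* (0.39) with *Cacna1c*, *Adgrl2* (0.42) and *Arfgap3* (0.41) with *Cacna1d*, and *Letm1* (0.48) and *Rsf1* (0.46) with *Cacna1e*. No gene was most like more than 1 member. Each was picked as the highest of many values in sparse counts. The order was not stable without Pyr←ORBvl neurons 5 and 11: the first gene stayed first for *Cacna1b*, *Cacna1c* and *Cacna1i* only, and another gene came first for *Cacna1a*, *Cacna1d*, *Cacna1e*, *Cacna1g* and *Cacna1h*. *Cacna1g* was then left with counts in 9 neurons and ρ of 0.49 with *Ranbp10* and 0.48 with *Dus1l*, and *Deaf1* fell to rank 9 for *Cacna1b* (ρ = 0.46).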

How the data were processed

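Single L5 Pyrs were collected through the patch pipette, amplified with a Smart-seq2-based kit without molecular identifiers and sequenced. The authors aligned paired-end reads to GRCm38 with STAR 2.5.3, removed PCR duplicates and counted uniquely aligned reads on RefSeq genes with GenomicAlignments. They deposited counts per gene without normalization, and FPKM, whose computation is not given in the sources used here; from the values, FPKM were counts over total counts and a gene length fixed for each gene. Of the 34745 rows, 67 repeat a symbol. Columns that belong to no sample: 0.

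The main tool for counts was edgeR (4.0.16, TMM scaling, robust quasi-likelihood) under R (4.3.3), and DESeq2 (1.42.0) and limma (3.58.1) were alternatives. Shares, levels and sign flips were computed in Python (3.11.15) with scipy (1.17.1), pandas (2.3.3) and numpy (2.4.6), and plots with matplotlib (3.10.9). Standard errors of edgeR values were taken as the absolute fold change on the log2 scale divided by the root of F, and positive values mean higher in Pyr←ORBvl neurons. The main comparison took 28 sums over 14 prefixes with the prefix as block; 16384 sign flips were enumerated. Same-prefix sums of the types deviated together only weakly (r between -0.032 and 0.088, above 0.1 in 0 of 14 prefixes). Neurons were grouped by their subtype label and numbered in accession order within a type. The 8 members, the lists and the tests were chosen with earlier results of these data known. Named genes were the members, any listed gene called by either edgeR fit, the 2 listed genes with the largest fold in each direction, and the 2 most alike genes per member. *Lamp5*, *Cacna2d3*, *Cacna2d4* and *Stac* were named after their values were seen, and 1 result of the partner list is not reported here. The exclusion of neurons high in GABAergic genes followed the threshold in the authors' Methods; applied to the deposited counts it left out 8 neurons, a number other than the one in their Methods, and the neurons were not compared with those they left out.

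The scripts for the fits and the sign flips were tested on simulated data. In sums simulated with the dispersion (spread beyond counting error) of the data, edgeR called 1 of 100 genes changed 8-fold. Of 100 genes changed 64-fold it called 25. With 0.1 times that dispersion it called 98 and 100. At the dispersion of the data, the fit on sums would thus miss most changes of these sizes.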

Additional observations from a re-analysis of the deposited data

Results flagged for a closer look

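Members of the family outside the comparisons had a signal in 1 neuron each. *Cacna1f*, the retinal L-type gene, had 67 counts in Pyr←LP neuron 39 and none elsewhere, and *Cacna1s*, the skeletal muscle gene, had 46 counts in Pyr←LP neuron 42 and none elsewhere. Both are above 3 counts, the limit used for a count of 0, which covers counting error only, and reads without molecular identifiers are not independent molecules.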

How the results depend on the processing

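The count of genes called on sums per prefix, 1 in the report, depended on the test. It was 548 with DESeq2 on the same sums, 24 with no replicate block, 130 with neurons as units, 174 with neurons as units and the prefix as block, 65 with DESeq2 on neurons, 2 with edgeR's own filter, 3 without neurons high in GABAergic genes on counts or on TPM, and 1 to 7 when each prefix was left out (7 without prefix 727, 3 without that of Pyr←LP neurons 11 to 14, 2 without 822 or 902); the cause was not tested. *Lamp5* was called in every one of these fits. With neurons as units it was 113 to 129 when single neurons were left out. Of the auxiliary subunits, 1 was called by DESeq2 on the sums (*Cacnb4*, log2 fold change -2.98, adjusted p = 0.038), and no partner was called under any alternative.

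*Cacna1h* kept its direction under all alternatives in which it was fitted, between 0.69 (limma, log2(FPKM + 1)) and 7.66 (neurons as units, without Pyr←LP neuron 10). It was called only with neurons as units, and on sums without the block it was 2.47 (edgeR, adjusted p = 0.998). Leaving out each prefix moved it between 3.51 and 5.28, *Cacna1c* between -4.50 and -2.81 and *Cacna1e* between -0.34 and 1.32. Signs turned for members that no test called on sums. *Cacna1b* was -1.05 with neurons as units and -1.41 with DESeq2 on neurons, and 2.67 with neurons and the block. *Cacna1e* was -0.28 with neurons as units, -0.32 with DESeq2 on neurons, -0.53 with no replicate block, -0.078 with limma on log2(CPM + 1), -0.080 with limma on log2(FPKM + 1), -0.10 with a pseudocount of 0.1, and 0.54 with neurons and the block. *Cacna1g* was 2.88 with neurons as units, 0.67 with DESeq2 on neurons, 3.16 with no replicate block and -1.83 with neurons and the block. Differences in the share of neurons also turned: for *Cacna1a* 1.52 percentage points after thinning, for *Cacna1b* -2.98 without neurons high in GABAergic genes and -0.71 without Pyr←ORBvl neurons 5 and 11, for *Cacna1d* -3.57 at 5 counts and -1.52 after thinning, for *Cacna1e* -3.69 at 5 counts and for *Cacna1g* 1.79 at 5 counts. Leaving out single neurons, leaving out neurons 5 and 11, likeness included (or averaging them with neurons as units), the GENCODE lengths and the rule of the authors with neurons as units were chosen after seeing the data. Members, most often *Cacna1g*, could not be fitted where the filter, applied again to fewer neurons, removed them. With edgeR's own filter, which kept all neurons, *Cacna1a* was the only one left of the members tested on sums. With the SE of the members on sums between 1.88 and 2.28, a missing call does not show that the types are alike.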
